A study of Mus musculus with 10 samples.

Results

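The proteasome genes of mouse intestinal organoids were followed in the presence and absence of IκBα. The members were chosen by name. They are all genes in the probe-to-gene table whose symbol is Psm followed by a letter from a to g and a number, and 47 of the 19505 genes measured met this rule, each with 1 probe set. They comprised 7 alpha and 4 structural beta subunits of the core particle, 2 catalytic beta subunits, 3 immunosubunits, 2 core subunits restricted to other tissues, 6 ATPases and 11 further subunits of the 19S regulator, 5 genes for other caps and a core inhibitor, and 7 assembly chaperones. Psmb5, the remaining catalytic subunit, is not analysed here, because no probe set was paired with it.

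Total RNA of 10 organoid samples of mouse intestine was measured on 1 array each, 5 of the genotype KO for IκBα and 5 WT. The source name of every sample carries the mark P6, which was not interpreted. No treatment is named, and the strain, the age, the allele and the way in which IκBα was lost are not stated in the labels. The labels also do not say whether each sample is its own animal or culture. All p-values therefore describe the spread among these 10 samples alone, and that spread may be technical. Values are log2 levels as the authors deposited them, and a change is the KO mean minus the WT mean.

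The proteasome is the protease that takes apart proteins tagged with ubiquitin. Its core is a barrel of alpha and beta rings with the cutting sites inside, and the 19S regulator recognises, unfolds and feeds in the substrate. In cells exposed to interferon, the immunosubunits Psmb8, Psmb9 and Psmb10 replace the catalytic subunits Psmb5, Psmb6 and Psmb7 in newly made cores, which favours peptides for display on class I molecules. The proteasome is also part of the NF-kB route, since it degrades tagged IκBα and thereby frees NF-kB.

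Nfkbia, which encodes IκBα, was lower in KO, with a change of -4.13 ± 0.20 (SE; limma adjusted p = 2.81e-08), and its 2 groups did not overlap. The groups also differed in the Y-linked genes Eif2s3y, Uty and Kdm5d, which had changes of -5.20, -4.47 and -2.42, with no overlap. A mean over 10 epithelial markers was 10.53 to 11.00 in KO and 10.78 to 11.04 in WT. Of these markers 4 were higher and 3 lower in KO, 70% against 26.7% of all probe sets tested. Their changes ran from -2.16 for Cdx2 to 1.43 for Krt18. Over all genes tested, the median change was -0.01 and the median size of a change 0.21. Array by array, the median of 5222 negative-control probe sets was 4.30 to 5.10. The 8 bacterial and phage spike-in probe sets had changes from -0.85 to -0.10, with a median of -0.52. The part of the sex-linked difference and of the spike-in difference in the results below was not tested. In RNA from whole cultures, fewer cells of a type and less RNA per cell cannot be told apart.

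Proteasome genes as a whole moved little. Only Psmd10 and Psmd8 rose in KO, and Psmb10, Psmb9 and Psma8 fell, at a limma adjusted p under 0.05; the other 42 did not pass. The 2 genes that rose are 4.26% of the members, where 15% of all probe sets tested were higher in KO, and the 3 that fell are 6.38%, where 11.7% of all were lower. In either direction 10.6% of the members passed, against 26.7% of all. The median change of the members was -0.05, and the median size of their changes was 0.13, against 0.21 over all genes. Their KO and WT values were free of overlap in 4 genes, 8.51% of the members, against 21.4% of all probe sets. The members' changes ran from -0.94 to 0.90, so no member changed by 1 log2 unit, whereas 12.1% of all probe sets did.

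The precision of the arrays sets how far this can be read. For 36 of the 42 genes that did not pass, the 95% interval of the change lay wholly within 1.5-fold in either direction. With the members that passed included, 37 of the 47 had an interval that narrow, against 57.3% of all genes tested. The 42 changes ran from -0.38 to 0.26, with adjusted p-values from 0.070 to 0.977. The intervals of Psma7, Psmb8, Psmd5, Psmd6, Psmg2 and Psmg3 reached beyond 1.5-fold.

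**Figure D1:**
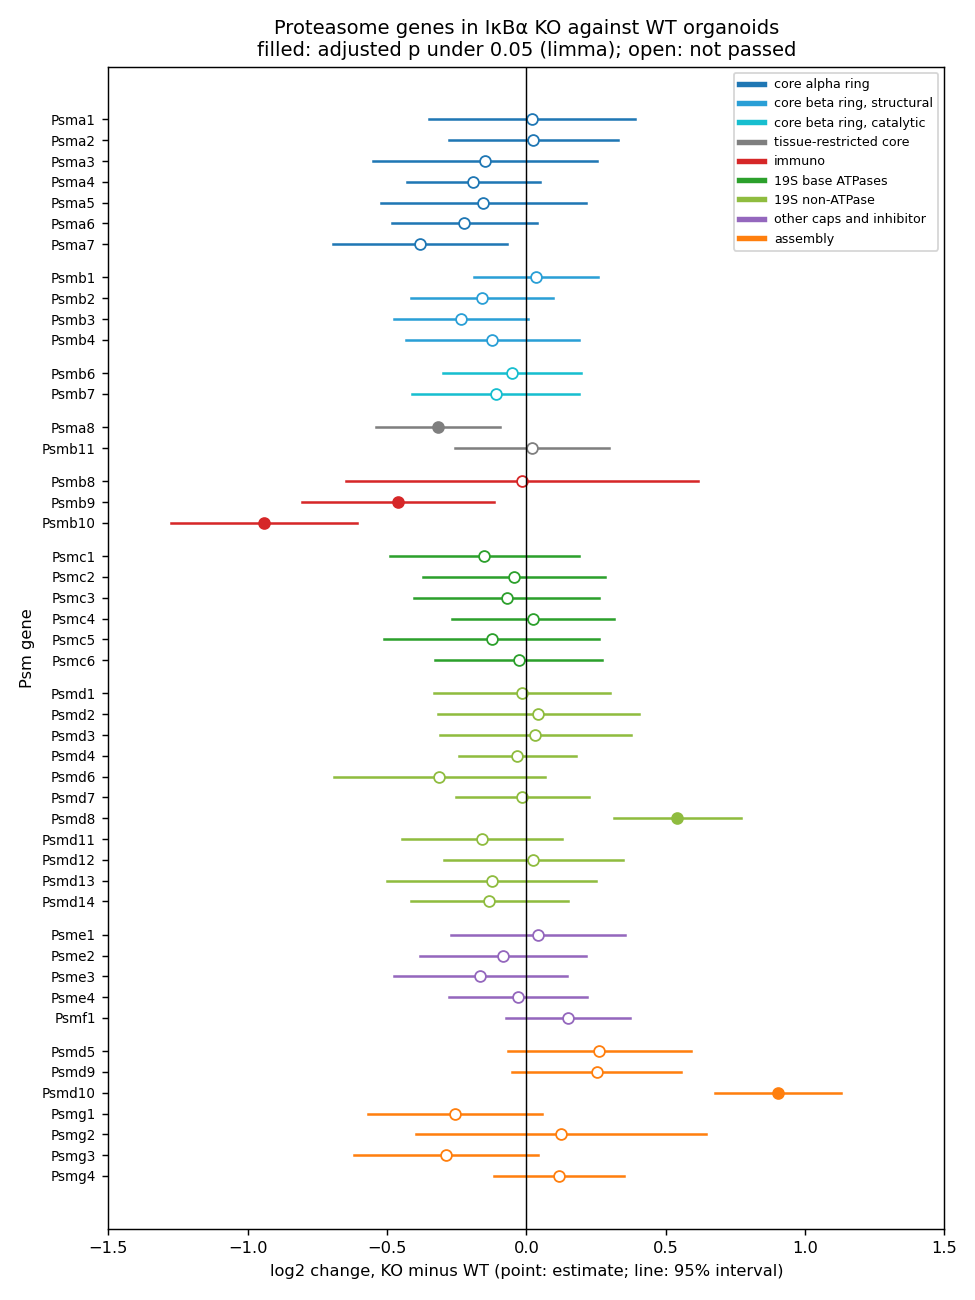
Change of each of the 47 Psm genes in log2 units, KO minus WT, as a point with its 95% interval from limma, grouped and coloured by role. Filled points passed an adjusted p of 0.05; Psmd10 at 0.90 and Psmb10 at -0.94 lie farthest from 0, and the 42 open points lie between -0.38 and 0.26.

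The 7 alpha subunits, which form the outer rings and the gate of the core, did not pass in KO. Their changes ran from -0.38 to 0.02 with a median of -0.15, and 5 of the 7 were below 0. Psma7 had the largest change of the constitutive core. It read 9.15, 9.41, 9.63, 9.38 and 9.08 in KO replicates 1 to 5 and 10.01, 9.75, 9.79, 9.37 and 9.65 in the WT replicates. WT replicate 4 lay among the KO samples, and KO replicate 3 lay just below the other WT samples. The change was -0.38 ± 0.14 (SE; limma adjusted p = 0.070), and it was -0.47 with an adjusted p of 0.026 without WT replicate 4, and -0.46 with 0.036 without KO replicate 3. Psma6 changed by -0.22 ± 0.12 and Psma4 by -0.19 ± 0.11, with limma adjusted p-values of 0.204 and 0.236.

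The 4 structural beta subunits, which build the inner rings without cutting, did not pass either. Psmb3 had a change of -0.23 ± 0.11 (SE; limma adjusted p = 0.147), and Psmb1, Psmb2 and Psmb4 had changes of 0.04, -0.16 and -0.12. The 2 catalytic subunits measured were level between the groups. Psmb6, the subunit that cuts after acidic residues, was 10.50 ± 0.16 in KO and 10.55 ± 0.16 in WT (SD, n = 5 each), with a change of -0.05 and a 95% interval from -0.30 to 0.19. Psmb7, the trypsin-like subunit, was 9.91 ± 0.21 in KO and 10.02 ± 0.22 in WT, with a change of -0.11 and an interval from -0.41 to 0.19. Over the 13 constitutive core genes measured, 0 passed by limma, against 26.7% of all probe sets tested, and 1, Psma7, had an unadjusted p under 0.05. The median change was -0.15 and 10 were below 0; the median was -0.06 without KO replicate 5, -0.08 without WT replicate 3 and -0.23 without WT replicate 4. For 12 of the 13 the interval lay within 1.5-fold.

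Of the 3 immunosubunits, Psmb10 and Psmb9 fell at a limma adjusted p under 0.05 and Psmb8 did not pass. These are 2 of 3 genes, where 11.7% of all probe sets tested were lower in KO. The 95% interval of Psmb8, from -0.65 to 0.62, holds the change of -0.46 of Psmb9. An unequal change of Psmb8 and Psmb9 is therefore not shown. Psmb10, the inducible partner of Psmb7, fell the most of all members. It read 7.94, 7.63, 7.73, 7.83 and 7.41 in KO replicates 1 to 5, and 9.04, 8.61, 8.24, 8.74 and 8.62 in the WT replicates. Every KO value was below every WT value. The value of KO replicate 5 lay under the 95th percentile of the negative-control probe sets, which was 7.56 on that array. The change was -0.94 ± 0.15 (SE; limma adjusted p = 0.00064), which is a 1.92-fold lower level with a 95% interval from 1.52-fold to 2.42-fold. Psmb10 was lower in KO with an adjusted p under 0.05 in each of the 19 alternatives tried, and its change ranged from -1.04 to -0.84.

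Psmb9, the inducible partner of Psmb6, fell by less and less securely. Its KO values were 6.39, 5.79, 5.82, 5.70 and 5.67, and its WT values were 6.51, 6.47, 6.28, 6.43 and 5.99. The groups overlapped, because KO replicate 1 was above WT replicates 3 and 5. The change was -0.46 ± 0.16 (SE; limma adjusted p = 0.049). This call was lost in 12 of 19 alternatives, among them leaving out 1 array, be it KO replicate 2, 3, 4 or 5 or WT replicate 1, 2, 3 or 4, where the adjusted p was 0.072 to 0.116. All 10 Psmb9 values lay under the 95th percentile of the negative-control probe sets, which was 7.17 to 7.77, though above their median.

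Psmb8, the inducible partner of Psmb5, had no measurable change and the largest standard error of the members. It read 7.25, 6.57, 5.64, 6.21 and 6.35 in KO and 7.15, 6.40, 5.93, 6.20 and 6.41 in WT. Replicate 1 was the highest and replicate 3 the lowest in both groups, and the ranges lay on top of each other. The change was -0.02 ± 0.29 (SE; limma adjusted p = 0.977), with a 95% interval from -0.65 to 0.62, which reaches 1.5-fold in both directions. Its values were also under the 95th percentile of the negative controls on all 10 arrays.

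**Figure D2:**
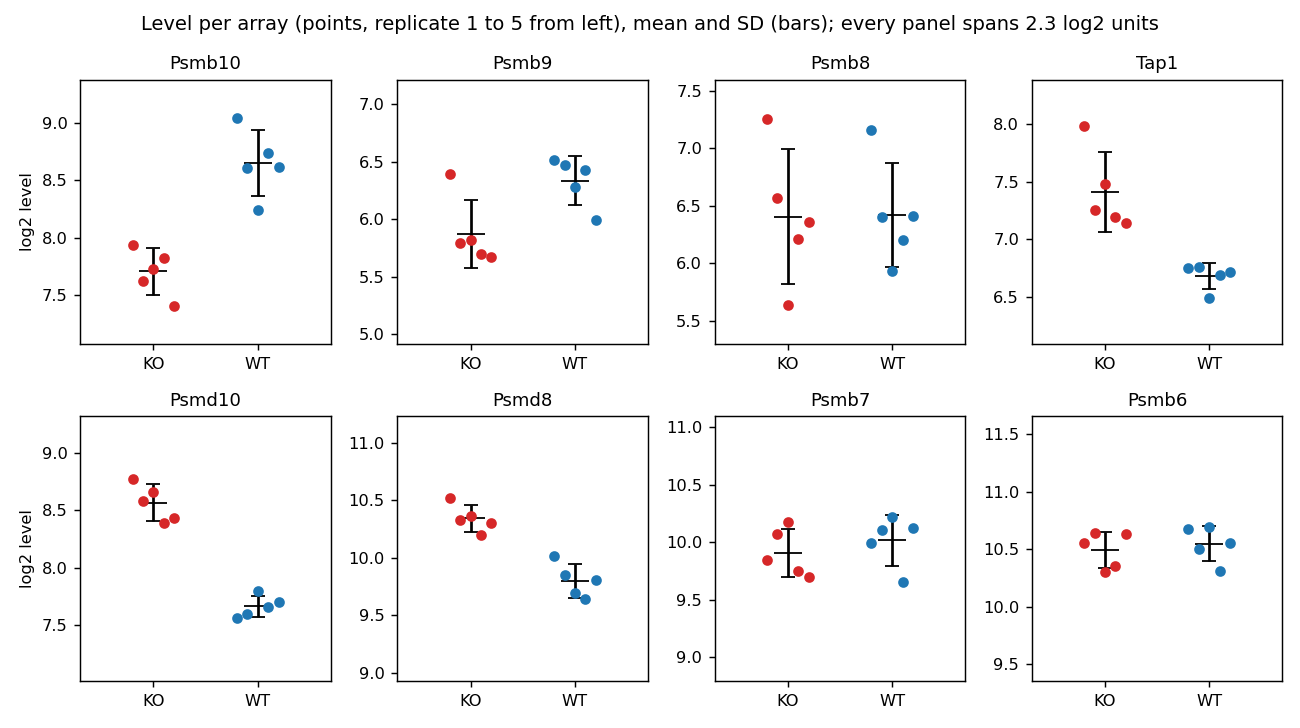
Log2 level of 8 genes on each array, replicates 1 to 5 from left to right in KO and in WT, with the group mean and SD as bars; every panel spans the same number of log2 units. Psmb10 is lower and Psmd10, Psmd8 and Tap1 are higher in all KO samples than in any WT sample, while Psmb8, Psmb7 and Psmb6 overlap.

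Immunosubunits are abundant in blood cells, so the markers of these cells were read beside them. The mean level of the 10 blood and immune markers measured was 5.23 to 5.62 in KO and 5.48 to 5.65 in WT, near the negative controls. Of the 10 markers, 2 were higher in KO and 1 was lower, 30% against 26.7% of all probe sets. Ptprc, the pan-leukocyte marker, was 5.49 ± 0.10 in KO and 5.70 ± 0.21 in WT (SD, n = 5 each) and did not pass. Itgam and Csf1r, genes of myeloid cells, had changes of 1.56 and 1.53, with limma adjusted p-values of 0.0071 and 0.00039. Itgam read 8.37 in KO replicate 1 and 6.14 to 6.64 in the other KO replicates. Of the values of these 2 genes, only KO replicate 1 of Itgam and KO replicate 5 of Csf1r lay above the 95th percentile of the negative controls. Lyz2, a lysozyme gene on the same list, read 8.50 to 9.10 in WT, above that percentile, and 4.32 to 4.78 in KO. Its change was -4.18 (limma adjusted p = 2.4e-09). The part of these differences in the fall of Psmb10 and Psmb9 was not tested.

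Each immunosubunit was then set against the constitutive subunit whose place it takes, as the difference of the log2 levels within 1 array. Such a difference shows whether the pair changed unequally, since the levels of different probe sets are not comparable. Psmb10 minus Psmb7 was -1.90, -2.44, -2.45, -1.93 and -2.29 in KO and -0.95, -1.50, -1.98, -0.92 and -1.50 in WT. Only WT replicate 3 reached into the KO range. The group means differed by -0.83 (exact two-sided permutation test, p = 0.0238, and 0.0476 adjusted over the 2 pairs run of 3 planned). Psmb7 itself changed by -0.11, so this difference is mostly the fall of Psmb10 again. Without any 1 of KO replicates 2, 3 and 5 and WT replicates 1 and 4 the adjusted p was 0.0635, with differences from -0.81 to -0.72.

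Psmb9 minus Psmb6 was -4.16, -4.84, -4.48, -4.66 and -4.96 in KO and -4.16, -4.03, -4.41, -3.88 and -4.57 in WT. KO replicates 1 and 3 lay within the WT range. The difference of -0.41 did not pass (exact two-sided permutation test, p = 0.0635, also after adjustment over the 2 pairs), and it was -0.52 with an adjusted p of 0.0317 without KO replicate 1 and -0.50 with 0.0397 without WT replicate 5. The third pair, Psmb8 with Psmb5, is not analysed here.

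The immunosubunits can also be set against each other within an array. These comparisons were chosen after Psmb10 was seen to fall most, so they restate its fall and carry no test. Psmb10 minus Psmb8 was 1.30 ± 0.55 in KO and 2.23 ± 0.23 in WT (SD, n = 5 each), and Psmb10 minus Psmb9 was 1.83 ± 0.21 and 2.31 ± 0.27. Both overlapped between the groups. Psmb8 and Psmb9 lay under the 95th percentile of the negative controls on all arrays, where a change can be compressed.

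Psmb9 lies head to head with Tap1, the gene of the transporter that carries proteasome-made peptides into the endoplasmic reticulum. Both genes start within one short stretch of chromosome 17 and are read away from it, so the bases before one start are also the bases before the other. It is shown here because the 2 genes went in opposite directions, though the call of Psmb9 was lost in 12 of 19 alternatives. The bases between the starts were read from the RefSeq promoter table (GRCm38.p6), chr17:34187331-34187555, minus strand, 5′ to 3′ toward Psmb9, and the capitals mark a GC box (GGGCGG) and a CCAAT box, the latter on the opposite strand.
Psmb9 promoter: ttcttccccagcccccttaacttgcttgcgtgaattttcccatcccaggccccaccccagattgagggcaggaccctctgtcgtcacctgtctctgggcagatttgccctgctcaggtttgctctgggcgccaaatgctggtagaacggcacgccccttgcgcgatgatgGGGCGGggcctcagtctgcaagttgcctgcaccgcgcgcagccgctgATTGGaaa

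Tap1 rose where Psmb9 fell. It read 7.99, 7.26, 7.48, 7.19 and 7.14 in KO and 6.75, 6.76, 6.49, 6.69 and 6.72 in WT, with no overlap. The change was 0.73 ± 0.16 (SE; limma adjusted p = 0.0043). All 5 WT values of Tap1, and its values in KO replicates 4 and 5, lay under the 95th percentile of the negative controls. Tap1 minus Psmb9 was 1.59, 1.46, 1.66, 1.49 and 1.47 in KO and 0.23, 0.29, 0.21, 0.26 and 0.73 in WT. The groups lay 1.19 apart without overlap. This pair was chosen after Tap1 was seen to rise and Psmb9 to fall, so the difference is a description with no test. Psmb8 lies between Tap1 and Tap2 on the same chromosome. Tap2 had a change of 0.46 (limma adjusted p = 0.052), and H2-DMb1, on the other side of Psmb9, rose by 1.12 (limma adjusted p = 0.00011). The H2-DMb1 values, 5.65 to 7.23, lay under the 95th percentile of the negative controls on all arrays.

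**Figure D3:**
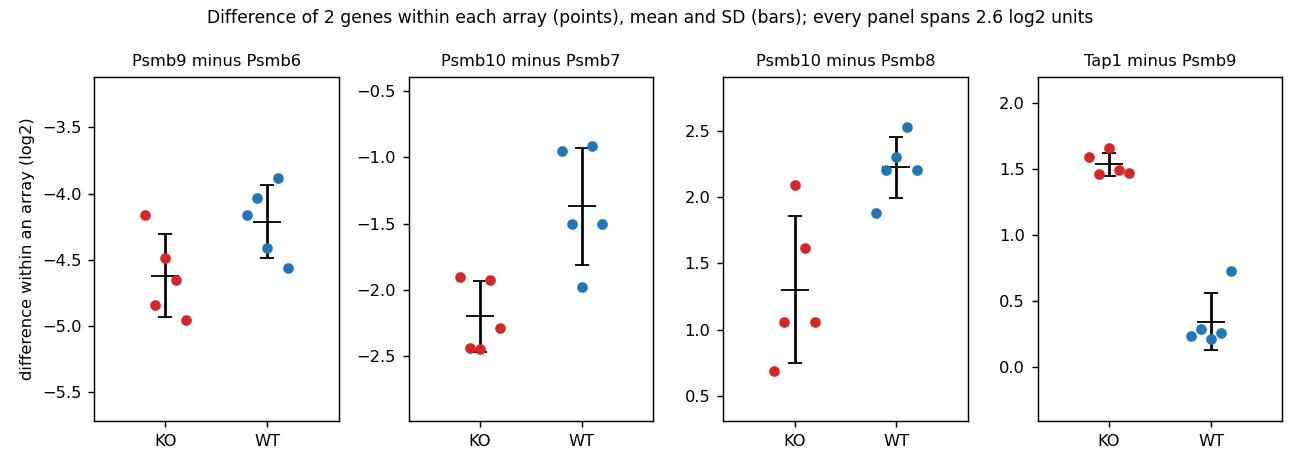
Difference of the log2 levels of 2 genes within each array, one panel per pair and one point per array, with the group mean and SD as bars; every panel spans the same number of log2 units. Tap1 minus Psmb9 separates KO from WT by 1.19, Psmb10 minus Psmb7 and Psmb10 minus Psmb8 are lower in KO with overlap, and Psmb9 minus Psmb6 did not pass.

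The core subunits of other tissues stood near or at background. Psma8, the alpha subunit of germ cells, was 3.79 ± 0.14 in KO and 4.11 ± 0.10 in WT (SD, n = 5 each), and all 10 values were at or below the median of the negative controls. Its change of -0.32 passed (limma adjusted p = 0.037), but this is a difference at background level and the call was lost in 9 of 18 alternatives. Psmb11, the beta subunit of thymic cortical epithelium, lay between 5.39 and 5.94 with a change of 0.02.

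In the 19S regulator, 1 of 17 genes passed, 5.88% against 26.7% of all probe sets tested, and 12 of the 17 changes were below 0. The 6 ATPases Psmc1 to Psmc6, the ring that unfolds the substrate, had changes from -0.15 to 0.02, with a median of -0.06. All 6 intervals lay within 1.5-fold. Psmc1 had the lowest of these changes, -0.15 ± 0.15 (SE), and Psmc4 the highest, 0.02 ± 0.13, so the extremes of the ring were each about 1 standard error or less from 0. Of the 11 further subunits, Psmd8 rose and 10 did not pass, and their median change was -0.02. Psmd1 and Psmd2, the large scaffold subunits, had changes of -0.02 and 0.04. The subunits Psmd3, Psmd7, Psmd11, Psmd12 and Psmd13 had changes of 0.03, -0.01, -0.16, 0.03 and -0.12. Psmd4, a ubiquitin receptor, had a change of -0.03, and Psmd14, the enzyme that takes off the ubiquitin chain, one of -0.13. Psmd6, a subunit of the lid, had the largest change among those that did not pass, at -0.31 ± 0.17 (SE; limma adjusted p = 0.222), and it was -0.45 with an adjusted p of 0.035 without WT replicate 4.

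Psmd8, a subunit of the lid, read 10.52, 10.33, 10.37, 10.20 and 10.30 in KO and 10.02, 9.85, 9.69, 9.64 and 9.81 in WT. All KO values exceeded all WT values. The change was 0.54 ± 0.10 (SE; limma adjusted p = 0.0022), a 1.46-fold higher level with a 95% interval from 1.24-fold to 1.71-fold. It passed in each of the 19 alternatives tried. Its neighbours on chromosome 7, Ggn and Catsperg1, had changes of 0.07 and 0.18 and did not pass.

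The other caps and the core inhibitor did not pass, where 26.7% of all probe sets did, and 0 of these 5 genes had an unadjusted p under 0.05 by limma. Psme1 and Psme2 are the interferon-inducible parts of the PA28 cap that opens the core for peptide production. Psme1 read 11.07, 10.76, 10.59, 11.09 and 11.25 in KO and 11.17, 10.94, 10.68, 10.92 and 10.84 in WT. Psme2 read 9.43, 8.92, 9.06, 9.15 and 9.05 in KO and 9.15, 9.42, 8.84, 9.23 and 9.39 in WT. The ranges of both genes overlapped nearly throughout. Their changes were 0.04 and -0.08, with 95% intervals from -0.27 to 0.35 and from -0.38 to 0.22. Psme2b, a near-identical copy of Psme2 that falls outside the rule, had a change of -0.06, and probes may not separate the copies. Psme3, the nuclear PA28 cap, was 10.39 ± 0.25 in KO and 10.56 ± 0.19 in WT (SD, n = 5 each), a change of -0.17. Psme4, which encodes the PA200 cap, was 9.11 ± 0.15 and 9.14 ± 0.16, a change of -0.03. Psmf1, the gene of the core inhibitor PI31, was 10.51 ± 0.07 and 10.36 ± 0.16, a change of 0.15 with a limma adjusted p of 0.325. All 5 intervals lay within 1.5-fold.

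Among the 7 assembly genes, Psmd10 rose clearly and the other 6 did not pass. That is 14.3% higher in KO, near the 15% of all probe sets tested. Psmd10 encodes gankyrin, a chaperone that binds an ATPase while the base of the regulator is put together and that leaves the finished particle. It read 8.77, 8.58, 8.66, 8.39 and 8.43 in KO and 7.56, 7.60, 7.80, 7.66 and 7.70 in WT. The lowest KO value was well above the highest WT value. The change was 0.90 ± 0.10 (SE; limma adjusted p = 4.2e-05), a 1.87-fold higher level with a 95% interval from 1.60-fold to 2.19-fold, and it passed in each of the 19 alternatives tried.

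The other chaperones of the base, Psmd5 and Psmd9, had changes of 0.26 and 0.25 (limma adjusted p = 0.239 and 0.218). Psmd5 was 8.64 ± 0.22 in KO and 8.37 ± 0.26 in WT (SD, n = 5 each). Psmd9 read 7.14, 7.06, 7.60, 7.54 and 7.23 in KO and 6.92, 7.20, 7.29, 6.85 and 7.06 in WT. Both genes overlapped between the groups, unlike Psmd10. The chaperones of the alpha ring, Psmg1 to Psmg4, had changes of -0.26, 0.13, -0.29 and 0.12, with no pass. Psmg3 and Psmg4 lay under the 95th percentile of the negative controls on all arrays, Psmd9 on 7 and Psmg2 on 1.

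Psmd10 is X-linked, and the groups differed in Y-linked genes. The 798 X-linked genes measured had a median change of -0.01, 12.2% of them were higher in KO and 7.89% lower. Vsig1, next to Psmd10, rose by 3.24 (limma adjusted p = 0.0018), with WT values spread from 3.92 to 7.58. Atg4a lies on the opposite strand with more than 1 start, one of them inside Psmd10 and another upstream of it. Its change of 0.04 did not pass, and its values, 6.08 to 6.59, were under the 95th percentile of the negative controls on all arrays. The bases from the start of Psmd10 to this outer start of Atg4a are shown because Psmd10 had the largest rise of the members. They were read from the RefSeq table (GRCm38.p6), chrX:140956712-140956906, minus strand, 5′ to 3′ toward Psmd10, with a GC box and 2 CCAAT boxes on the opposite strand in capitals.
Psmd10 promoter: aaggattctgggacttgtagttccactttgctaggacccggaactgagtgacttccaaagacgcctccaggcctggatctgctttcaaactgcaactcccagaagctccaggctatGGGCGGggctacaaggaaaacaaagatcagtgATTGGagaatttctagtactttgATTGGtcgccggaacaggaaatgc

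Promoter sequence was available in that table for 39 of the 47 members, in 42 windows, and the 250 bases before each start were searched on both strands. The antioxidant response element TGACNNNGC, which is bound by Nfe2l1 and Nfe2l2, was found in 4 windows, 9.52% against 10.2% of all 32851 windows. These were the windows of Psmb6, Psmc6, Psmd9 and Psmd12. The interferon element GAAANNGAA was found in 3, 7.14% against 7.13%, and the kappaB consensus in 6, 14.3% against 7.25%. The kappaB matches lay upstream of Psma6, Psma7, Psmd11, Psmd12, Psmd13 and Psme4, none of which passed. The windows of Psmb8, Psmb9, Psmb10, Psmd8 and Psmd10 held no match to these 3 motifs. Of the motifs added after the data were seen, the GC box GGGCGG was in 23 windows, 54.8% against 32.7% of all, and the CCAAT box in 14, 33.3% against 33.8%. A match to letters is no evidence of binding.

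The standard subunits varied together between samples of the same group. For the 30 constitutive core and 19S genes, each value was set against the gene's mean in its own group. WT replicate 4 was the lowest of the 5 WT samples in 29 of the 30 genes, 96.7%, where it was the lowest in 26.1% of all genes. Its median deviation was -0.39, against 0.02 over all genes. KO replicate 3 was the highest KO sample in 24 of the 30, 80.0% against 22.0% of all genes, with a median deviation of 0.26. KO replicate 5 was the lowest KO sample in 18 of the 30, and WT replicate 3 the highest WT sample in 16. The 30 genes read 7.93 to 11.04, above the array medians of 6.03 to 6.23. Genes of like level were not compared, so whether the pattern is particular to these genes was not tested.

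**Figure D4:**
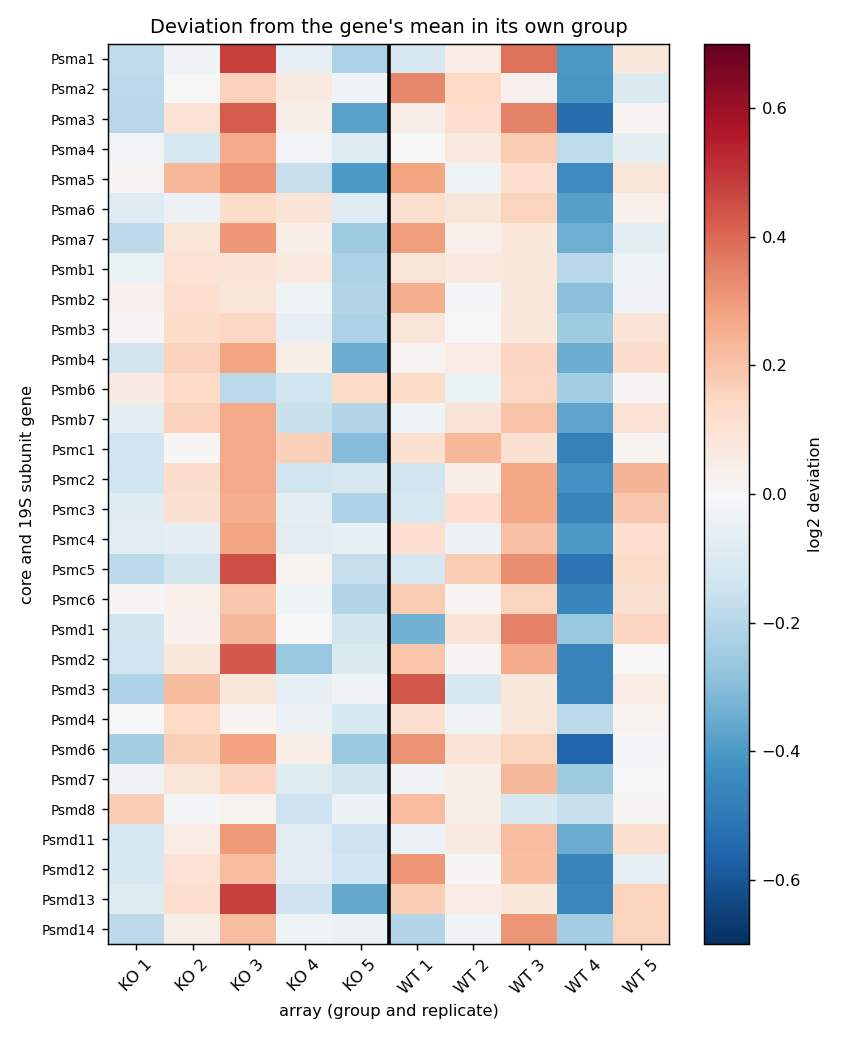
Deviation of each of the 30 core and 19S genes from its own group mean, in log2 units, with 1 column per array and the KO and WT arrays separated by a line. WT replicate 4 is low in all 30 genes and KO replicate 3 is high in 29.

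The small shift of these standard subunits depended on single arrays. With all 10 arrays, the median change of the 30 genes was -0.09 and 22 were below 0. It was -0.19 with 29 below 0 without WT replicate 4, and -0.16 with 27 without KO replicate 3. It was -0.03 with 18 below 0 without WT replicate 3, and -0.03 with 19 without KO replicate 5. With array weights it was -0.18 with 26 below 0. The 19S genes alone had a median of 0.01 without WT replicate 3, so their direction turned there.

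Some genes that work with the proteasome but lie outside it changed in KO. Among 14 of 17 accessory and assembly factors measured, 3 rose and 1 fell, 28.6% against 26.7% of all probe sets. Zfand5, which binds the proteasome and stimulates breakdown, rose most. Its KO values were 11.32, 11.30, 10.65, 11.34 and 11.32 and its WT values 10.08, 10.01, 9.93, 10.27 and 10.02, with no overlap and a change of 1.12 ± 0.14 (SE; limma adjusted p = 0.00010). Ubqln2, a shuttle that brings ubiquitin-tagged proteins to the proteasome, rose by 1.03 and Zfand2a, an arsenite-inducible proteasome partner, by 0.91, with limma adjusted p-values of 0.0049 and 0.0028. Ecpas, a scaffold that clamps the core to the regulator, fell by 0.55 (limma adjusted p = 0.018). Pomp, the maturation factor of the core, had a change of 0.20 and did not pass.

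Nfe2l1 is the transcription factor that raises proteasome subunit genes when proteasome capacity is short. It read 10.68, 10.48, 10.35, 10.69 and 10.77 in KO and 9.92, 9.87, 9.92, 9.53 and 9.83 in WT. The groups did not overlap, and the change was 0.78 ± 0.12 (SE; limma adjusted p = 0.00038). Of the 5 such factors measured among 6 listed, 2 rose, 40% against 26.7%. Nfe2l3, a relative of Nfe2l1, rose by 0.39 (limma adjusted p = 0.042), with overlap, and lost the call in 9 of 19 alternatives. Nfe2l2, the antioxidant factor, had a change of 0.20 (limma adjusted p = 0.508), and 0.39 with an adjusted p of 0.038 without WT replicate 4.

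Of the 6 interferon-route and peptide-loading genes measured among 8 listed, Tap1 and Tapbp rose and Erap1 fell, 3 of 6 genes where 26.7% of all probe sets passed. Tapbp, which holds class I molecules at the transporter, rose by 0.76 (limma adjusted p = 0.0048). Erap1, the enzyme that trims peptides after the transporter, read 7.96, 7.30, 7.77, 7.35 and 7.60 in KO and 8.42, 8.76, 8.75, 8.34 and 8.77 in WT. These groups did not overlap, and the change was -1.01 ± 0.15 (SE; limma adjusted p = 0.00035). Irf1, a factor that switches on immunosubunit genes, had a change of 0.30 and B2m, the light chain of class I molecules, one of 0.48, and neither passed. Nlrc5 is not analysed here. Of 5 ubiquitin-supply and unfolding genes measured among 10 listed, 0 passed by limma, against the same 26.7%, and 2 had an unadjusted p under 0.05. The largest change was that of Vcp, the unfolding ATPase, at -0.41 (limma adjusted p = 0.072).

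**Figure D5:**
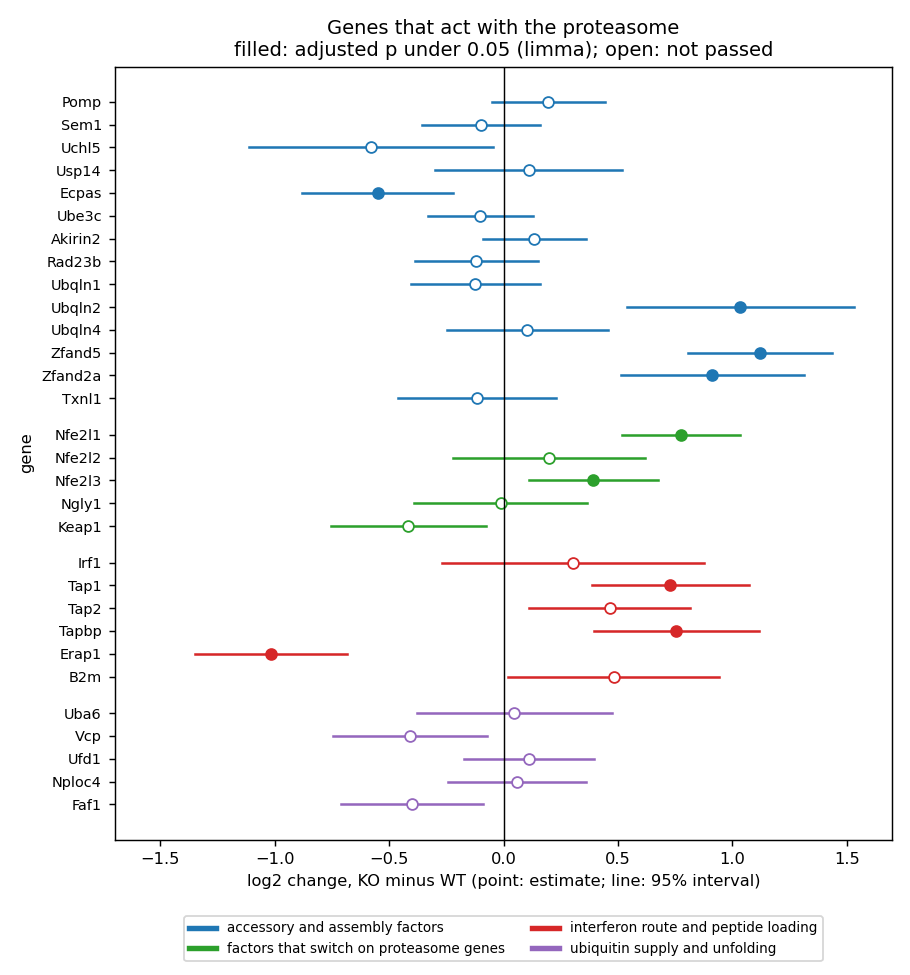
Change of genes that act with the proteasome, KO minus WT in log2 units, as points with 95% intervals from limma, coloured by list; filled points passed an adjusted p of 0.05. Zfand5 at 1.12 is the highest and Erap1 at -1.01 the lowest.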

How the data were processed

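Total RNA (100 ng per sample, per the labels' protocols) of 5 KO and 5 WT organoid samples was measured on Affymetrix arrays. Each probe set has 1 log2 level for every array, as deposited. RMA and limma are the tools that the submitters' processing notes name. Their versions, the genome build and whether the arrays were normalized jointly were not given in the sources used here. Of 28846 probe sets, 6640 were controls.

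The log2 levels were used as deposited. limma 3.58.1 (R 4.3.3) compared KO with WT by a linear model with moderated variances on all probe sets, and Benjamini-Hochberg adjustment ran over the 19572 probe sets paired with 1 gene symbol (19505 genes), with a threshold of 0.05 and no filter on dim probe sets. The script was tested on simulated data. Pairs of genes were compared by the difference within an array with exact two-sided permutation tests. Python 3.11.15 with numpy 2.4.6, pandas 2.3.3 and matplotlib 3.10.9 made the tables and figures. Promoter sequence and gene neighbours came from RefSeq tables (GRCm38.p6). The number of arrays limits the precision.

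The members, their roles, the companion and marker lists and the motifs were chosen with earlier results of these data known. Named in full were the immunosubunits and their partners, the caps and inhibitor, every member that passed, companion genes that passed and Nfkbia with a few regulators; Psma4, Psma6, Psmb3 and Psmd6, the other subunits and the markers were named after their values were seen. Alternatives were another normalization or centring, a filter on dim probe sets, other variance models, array weights, a wider adjustment, a replicate block and leaving out arrays.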

Additional observations from a re-analysis of the deposited data

Results flagged for a closer look

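In 94 groups of 5 arrays, 2 for each of the 47 members, the gap of an outer array to its nearest neighbour was divided by the group's range. This ratio exceeded Dixon's 95% critical value of 0.71 in 9 groups, where chance gives about 1 in 20 groups, 4.7 here. In 5 of them the array was WT replicate 4, the lowest of its group. It read 9.37 for Psma6 against 9.79 to 9.91 on the other WT arrays, 9.12 for Psmb3 against 9.36 to 9.46, and 8.69 for Psmb4 against 9.06 to 9.19. For Psmc6 it read 8.81 against 9.29 to 9.45, and for Psmd13 10.11 against 10.61 to 10.74. In 3 it was KO replicate 3, the highest of its group: 10.21 for Psma1 against 9.51 to 9.71, 10.50 for Psma4 against 10.12 to 10.22, and 10.09 for Psmc4 against 9.74 to 9.76. The remaining one was Psmb9 in KO replicate 1, at 6.39 against 5.67 to 5.82 on the other KO arrays. The core and 19S genes share these arrays, so the 8 values of WT replicate 4 and KO replicate 3 are not independent of each other.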

How the results depend on the processing

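Psmd10 and Psmd8 were the 2 members higher in KO in all 19 alternatives, and Psmb10 was lower in all 19. The count of members lower in KO was 3; it was 5 with array weights (Psma7 and Psmb3 added) and 6 with KO replicate 3 and WT replicate 4 both left out, a setting chosen after the data were seen (Psma6, Psma7, Psmb3 and Psmd6 added, Psmb9 lost); these arrays were chosen as the highest KO and the lowest WT for such genes, so that gain follows from the choice and is no evidence. It ranged from 1 to 4 when 1 array was left out. Psmb9 minus Psmb6, -0.41, passed with cyclic loess between arrays (-0.41, exact permutation p = 0.0476), and ranged from -0.52 to -0.32 with 1 array left out. Psmb10 minus Psmb7 ranged from -0.98 to -0.72 in the same way, and with the replicate number as a block it was -0.83 with an exact sign-flip p of 0.0625, the smallest that 5 pairs can give (0.125 adjusted). With the replicate block in limma, 2 members were higher and 2 lower, Psmb10 and Psmb9. The labels do not say whether the numbers pair the samples. Same-numbered deviations correlated at -0.07 to 0.36, and only replicates 3 and 4 exceeded 0.1, at 0.36 and 0.18. Such correlations do not settle whether the samples are paired. Psmb9 also lost its call with 75th-percentile centring (adjusted p = 0.0513), with a variance trend and robust moderation (0.0527) and with the wider adjustment (0.0513). Psma8 was not tested when the dimmest 25% of probe sets were left out. Ecpas had an adjusted p of 0.0533 with KO replicate 3 and WT replicate 4 both left out. The sign of Psmb8, which did not pass, turned in 4 alternatives. Psmb8 minus Psmb5 was not run. Centring moved the median change of all genes to -0.05, by less than 0.1.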
